A study of Mus musculus with 6 samples.

Results

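The enzymes and transporters of central carbon metabolism were followed through macrophages that carried or lacked MSR1, the class A scavenger receptor. The members were 44 genes, taken by gene symbol from a table of 52550 genes: 20 of glycolysis with glucose uptake and lactate export, 2 at the entry of pyruvate into mitochondria (Pdk1 and Pdha1), 6 of the pentose phosphate pathway and 16 of the tricarboxylic acid (TCA) cycle with its cytosolic counterparts. RNA-seq counts came from 3 MSR1 KO and 3 MSR1 WT libraries. All were C57BL/6 bone marrow-derived macrophages, grown for 7 days in 25 ng/ml M-CSF and then held for 48 h in a transwell with bone marrow stem cells (BMSCs). No library of macrophages without BMSCs was analysed here, so every value below is from co-culture. The study used MSR1 KO mice and describes no deletion limited to macrophages. It calls the replicates biological, and the labels number them without saying whether they came from separate mice or cultures, so p-values measure the spread between these samples.

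Glycolysis splits glucose into pyruvate in the cytosol and yields ATP, the pentose phosphate pathway turns glucose 6-phosphate into NADPH and ribose, and the TCA cycle oxidises acetyl-CoA in mitochondria and feeds the respiratory chain. Inflammatory macrophages are known for strong glycolysis with lactate release and for making itaconate from a TCA intermediate, and alternatively activated macrophages for oxidative metabolism. The genotype comparison addresses whether the transcripts for these routes differ when macrophages lack MSR1.

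Total counts ranged from 36143518 to 47417448 per library, and levels are given as CPM, the usual scaling of counts to library depth, here with TMM normalization factors. The Msr1 transcript was lowered but not absent, at 1825 to 2118 counts per library in MSR1 KO against 7543 to 9219 in MSR1 WT. Macrophage markers dominated, with a summed level over 14 genes of 30424 to 31916 CPM in MSR1 KO and 30595 to 33090 CPM in MSR1 WT. Transcripts typical of stromal cells were present as well, with a summed level over 20 markers of 2948 to 3751 CPM in MSR1 KO and 3959 to 4844 CPM in MSR1 WT, and none of Col1a1, Col1a2, Fn1, Sparc and Acta2 was below 310.1 CPM in any library. These abundant genes carry the sum, and the list was not of a single direction: 15 of its log2 fold changes were below 0 and 5 above, and Thy1 (6 to 7.06 against 1.45 to 4.33 CPM) and Eng (81.3 to 117 against 62.7 to 72.9 CPM) had all MSR1 KO values above all MSR1 WT values. The summed level of 12 cell cycle genes was 520.4 to 594 CPM in MSR1 KO and 627 to 975 CPM in MSR1 WT. Neutrophil markers (10 genes) summed to 704 to 1120 and 459 to 852 CPM and lymphoid markers (10 genes, 4 of them tested) to 319 to 352 and 214 to 305 CPM, and red cell transcripts (7 genes) were near 0, at no more than 0.891 CPM in sum. In such bulk samples, fewer cells of a type and less RNA per cell cannot be told apart.

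Promoter sequence is shown for the pair of hexokinase genes with higher values in MSR1 KO and for 2 genes of later glycolytic steps with lower values, to set the members' shared sequence features beside their levels. They were picked after their values were seen. Each line holds the 250 bases before the RefSeq transcript start, 5′ to 3′ on the strand of the gene, in lower case. Capitals mark ACGTG or its complement CACGT, the core that hypoxia-inducible factors and E-box proteins can recognise.
Hk3, GRCm38.p6 chr13:55021386-55021635, minus strand: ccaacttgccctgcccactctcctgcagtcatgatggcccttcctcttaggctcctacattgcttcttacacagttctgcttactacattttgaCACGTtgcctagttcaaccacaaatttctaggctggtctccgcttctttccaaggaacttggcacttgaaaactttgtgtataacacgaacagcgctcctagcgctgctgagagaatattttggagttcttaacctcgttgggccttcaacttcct
Hk2, GRCm38.p6 chr6:82774455-82774704, minus strand: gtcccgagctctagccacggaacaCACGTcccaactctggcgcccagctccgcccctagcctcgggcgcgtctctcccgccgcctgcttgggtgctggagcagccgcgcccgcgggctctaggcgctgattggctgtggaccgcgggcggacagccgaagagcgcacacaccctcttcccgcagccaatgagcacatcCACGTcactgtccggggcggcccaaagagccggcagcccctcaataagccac
Pgam1, GRCm38.p6 chr19:41911621-41911870, plus strand: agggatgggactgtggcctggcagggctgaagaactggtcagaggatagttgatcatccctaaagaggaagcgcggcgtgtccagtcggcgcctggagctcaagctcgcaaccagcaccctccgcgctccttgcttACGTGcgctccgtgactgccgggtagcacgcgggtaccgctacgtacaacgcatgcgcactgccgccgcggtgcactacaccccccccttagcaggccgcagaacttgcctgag
Pgk1, GRCm38.p6 chrX:106186850-106187099, plus strand: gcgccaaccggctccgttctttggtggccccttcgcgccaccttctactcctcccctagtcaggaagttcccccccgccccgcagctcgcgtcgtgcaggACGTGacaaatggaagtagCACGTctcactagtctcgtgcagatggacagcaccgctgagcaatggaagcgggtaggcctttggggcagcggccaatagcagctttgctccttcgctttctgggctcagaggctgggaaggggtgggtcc
The match began 156 bases before the start in Hk3 and 114 bases before it in Pgam1. In Hk2 the matches began 226 and 52 bases before the start, and in Pgk1 150 and 131 bases before it. Of the 43 members with an entry in the RefSeq promoter table, 14 held ACGTG on either strand within 250 bases before at least 1 listed start. They were Slc2a1, Hk2, Hk3, Pfkm, Pfkfb3, Aldoa, Pgk1, Pgam1, Pkm, Ldha and Slc16a3 of glycolysis, and Idh3g, Ogdh and Mdh1 of the TCA group, with 0 of the 6 pentose phosphate genes. Over all 27025 genes of that table the motif was held by 18.5%, and by start rather than gene it was held by 22 of 62 member starts and 16.6% of all starts. The GC-box letters GGGCGG were found, by the same count, in 31 of the 43 members and in 35.4% of all genes. Genes with the ACGTG core lay among the members with higher values in MSR1 KO (Hk2, Hk3) as well as among those with lower values (Aldoa, Pgk1, Pgam1, Ldha), and a match in these letters is a description and not a bound site.

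All 44 members passed the filter on low counts, the lowest single value being 371 counts for Rpia. The study's definition of a differentially expressed gene is a fold change over 1.5 with a p under 0.05, taken here as unadjusted. By it, 1 member was higher in MSR1 KO (Hk3) and 0 were lower. Of the 16402 genes tested, 3.59% were called higher and 5.05% lower (8.64% together). At an adjusted p under 0.05 by edgeR's quasi-likelihood test, 0 members were called, where 2.25% of all genes were called higher and 2.66% lower (4.91% together). At an unadjusted p under 0.05 and any fold, 10 members were lower and 2 higher, against 10.2% and 8.65% of all genes (18.9% together). The count of 10 fell to 1 without MSR1 WT replicate 2, to 3 without MSR1 KO replicate 1 and to 6 without MSR1 WT replicate 1 or 3, and the count of 2 to 1 without MSR1 KO replicate 2 or MSR1 WT replicate 1 or 2. The MSR1 KO libraries all lay below the MSR1 WT libraries for 10 members and all above for 2, where 13.4% and 12.1% of all genes did so. DESeq2 called 2 members at an adjusted p under 0.05, Hk3 higher and Pgam1 lower, where it called 9.53% of all genes. The median log2 fold change (MSR1 KO minus MSR1 WT) was -0.10 over the 44 members and -0.002 over all genes tested, with 29 members below 0 and 15 above.

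**Figure D1:**
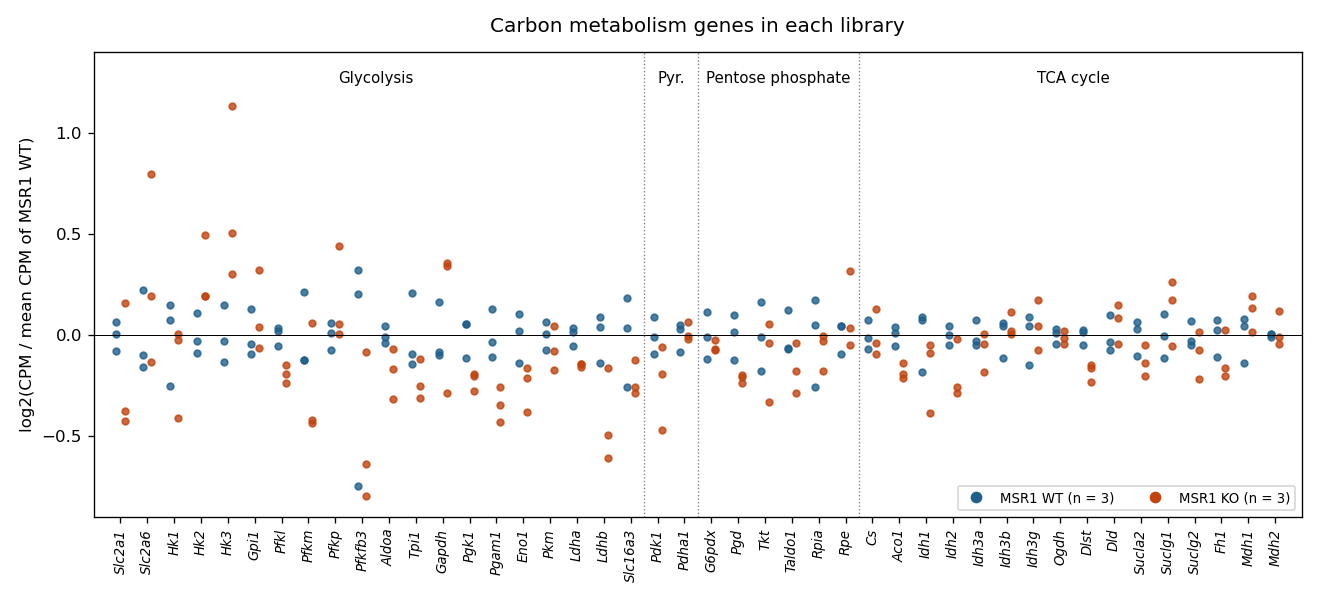
Level of each of the 44 members in each library, as log2 of its CPM over the mean CPM of the 3 MSR1 WT libraries (y axis), with genes in pathway order along the x axis and dotted lines between branches; blue points are MSR1 WT and orange points MSR1 KO. Hk3 and Hk2 lie above the MSR1 WT points in every MSR1 KO library, and the points of Pgk1, Pgam1, Eno1 and Ldha lie below, while most TCA genes sit near 0.

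Glycolysis showed the widest range of the branches. Of its 20 genes, 14 were below 0 and 6 above on the log2 fold change scale, from -0.47 (Pfkfb3) to 0.69 (Hk3), with a median of -0.19 beside -0.002 over all genes. At an unadjusted p under 0.05, 7 were lower and 2 higher. The summed CPM of the 20 genes overlapped between groups, from 3918 to 4514 in MSR1 KO and from 4244 to 4676 in MSR1 WT.

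At the first step, glucose enters through Slc2a1 (GLUT1), the main basal glucose transporter. Its level was 27.9, 40.5 and 27 CPM in MSR1 KO and 37.9, 36.4 and 34.3 CPM in MSR1 WT, so the groups overlapped, and the log2 fold change was -0.19 ± 0.16 (SE) with an adjusted p of 0.58. Slc2a6, another member of the glucose transporter family, had 15.2, 23.1 and 12.1 CPM against 12.4, 15.5 and 11.9 CPM, a log2 fold change of 0.34 ± 0.23 with an adjusted p of 0.49. In either transporter the highest of the 6 values was MSR1 KO replicate 2. Without that library the log2 fold change was -0.40 for Slc2a1 and 0.04 for Slc2a6.

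Hexokinases trap glucose in the cell by phosphorylating it. Hk3, the isozyme typical of myeloid cells (ENSMUSG00000025877, GRCm38 chr13:55005985-55021385, minus strand), had 231, 357 and 200.2 CPM in MSR1 KO and 148, 159 and 180.3 CPM in MSR1 WT. Every MSR1 KO library was above every MSR1 WT library, and replicate 2 stood well above the other two. The log2 fold change was 0.69 ± 0.20 (SE; 95% interval 0.24 to 1.15), a 1.62-fold difference with an adjusted p of 0.094 by edgeR and 0.0042 by DESeq2. Without MSR1 KO replicate 2 the log2 fold change was 0.41 and the gene no longer met the fold of 1.5. Hk3 is also a neutrophil transcript, and the summed level of the 10 neutrophil markers was 1120, 769 and 704 CPM in MSR1 KO and 852, 714 and 459 CPM in MSR1 WT, whose part in the Hk3 values was not tested. Hk2, the inducible isozyme bound to mitochondria, had 71.2, 87.8 and 71.2 CPM against 61, 58.7 and 67.2 CPM, again without overlap, and a log2 fold change of 0.30 ± 0.11 with an adjusted p of 0.16. Hk1, the housekeeping isozyme, had 92.3, 94.2 and 70.7 CPM against 98.9, 104 and 78.8 CPM, with a log2 fold change of -0.13 ± 0.14 and an adjusted p of 0.69.

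The hexokinase isozymes can be compared with each other once counts are divided by exon length. Per kilobase (kb) of exon, Hk3 made up 73.4%, 79% and 72.9% of the summed hexokinase level in MSR1 KO and 64.8%, 66.3% and 70.5% in MSR1 WT. Hk3 was thus the main hexokinase transcript of all 6 libraries, at 75.1% ± 3.38 (SD, n = 3) in MSR1 KO and 67.2% ± 2.97 (SD, n = 3) in MSR1 WT, 7.92 percentage points apart and without overlap. Hk1 took 10.9% ± 1.83 and 16.9% ± 3.11, all MSR1 KO values below all MSR1 WT values, and Hk2 took 14% ± 2 and 15.9% ± 0.757, with overlap. With coding length in place of exon length the Hk3 share was lower in either group, at 61.4% and 51.2%, and the difference was 10.1 percentage points.

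**Figure D2:**
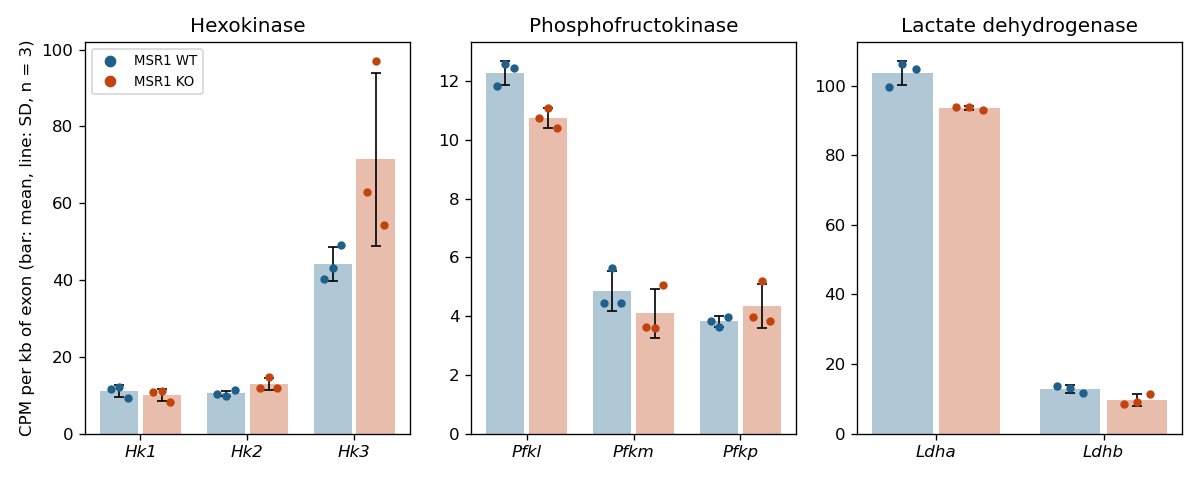
CPM per kb of exon (y axis, linear and from 0, a separate scale in each panel) of the hexokinase, phosphofructokinase and lactate dehydrogenase isozymes; bars are means, lines SD (n = 3) and points single libraries, with MSR1 WT in blue and MSR1 KO in orange. Hk3, Pfkl and Ldha are the tallest bars of their panels, and a single MSR1 KO library, at 96.9 CPM per kb, raises the mean and SD of Hk3.

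Phosphofructokinase commits sugar to glycolysis. Of its isozymes, Pfkl (liver type) had 71.7, 73.9 and 69.5 CPM in MSR1 KO and 78.9, 83.9 and 83.1 CPM in MSR1 WT, all MSR1 KO values below, with a log2 fold change of -0.19 ± 0.07 and an adjusted p of 0.18. Pfkm (muscle type) gave -0.25 ± 0.17 and Pfkp (platelet type) 0.18 ± 0.12, each with overlapping groups. Per kb of exon, Pfkl was the main form at 56.1% ± 2.34 and 58.6% ± 1.03 of the summed level (SD, n = 3), and the share of Pfkp was 22.6% ± 3.24 in MSR1 KO and 18.3% ± 1.42 in MSR1 WT, with no overlap between libraries. The Pfkl share overlapped between groups by exon length. By coding length every MSR1 KO share was below every MSR1 WT share, with means of 50.2% and 54.9%, 4.74 percentage points apart.

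Pfkfb3, which makes the allosteric activator of phosphofructokinase (ENSMUSG00000026773, GRCm38 chr2:11471433-11554077, minus strand), had the largest negative estimate of the members and the largest spread. Its level was 45.4, 74.5 and 50.8 CPM in MSR1 KO and 98.8, 90.9 and 47 CPM in MSR1 WT, where replicate 3 lay among the MSR1 KO values. The log2 fold change was -0.47 ± 0.28 (95% interval -1.12 to 0.17) with an adjusted p of 0.43. Without MSR1 WT replicate 3 it was -0.74, and without MSR1 KO replicate 2 it was -0.71, and in either case the gene met the study's definition of lower expression. The summed cell cycle level of MSR1 WT replicate 3 was 627 CPM, against 839 and 975 CPM in the other MSR1 WT libraries, and its part in the Pfkfb3 values was not tested. Among the members of glucose uptake and phosphorylation, MSR1 KO replicate 2 was the highest of the 3 MSR1 KO libraries for all but Pfkm. These were Slc2a1, Slc2a6, Hk1, Hk2, Hk3, Pfkl, Pfkp and Pfkfb3. Of such genes outside the members, it was the highest for Pfkfb2 but not for Slc2a3, Slc2a8, Slc2a9, Adpgk, Pfkfb1 and Pfkfb4. The same library had the highest stromal sum of the MSR1 KO libraries, at 3751 CPM against 2954 and 2948 CPM. Its cell cycle sum (594 against 533 and 520.4 CPM) and lymphoid sum (352 against 319 and 335 CPM) were also the highest. Its macrophage sum was the lowest (30424 against 31636 and 31916 CPM), and its neutrophil sum lay in between. The part of these sums in its values was not tested.

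Several enzymes between aldolase and enolase had lower values in MSR1 KO. Aldoa, which splits fructose 1,6-bisphosphate, had 497, 550.1 and 590.0 CPM in MSR1 KO and 615, 638 and 603 CPM in MSR1 WT, with a log2 fold change of -0.18 ± 0.077 and an adjusted p of 0.25. Pgk1, the first ATP-making step, had 213, 214 and 202 CPM against 254, 254 and 226 CPM, with -0.22 ± 0.072 and an adjusted p of 0.13. Both had no overlap between groups. Pgam1, which moves the phosphate of phosphoglycerate (ENSMUSG00000011752, GRCm38 chr19:41911871-41918664, plus strand), had 164, 185 and 174 CPM against 216, 242 and 205 CPM. Its log2 fold change of -0.34 ± 0.085 (95% interval -0.54 to -0.15) carried the smallest adjusted p of the members, 0.061, which DESeq2 put at 0.016. Eno1, the main enolase, had 386, 434 and 449 CPM against 510.4, 541 and 457 CPM, with -0.25 ± 0.088 and an adjusted p of 0.17. Slc2a6, Hk1, Pfkl, Pgam1, Eno1 and Gapdh were singled out after their values were seen. The stromal and the cell cycle sums were lower in every MSR1 KO library than in every MSR1 WT library, as were Aldoa, Pgk1, Pgam1 and Eno1, and the part of those sums in these differences was not tested.

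Gpi1 (0.11 ± 0.11), which isomerises glucose 6-phosphate, and Tpi1 (-0.22 ± 0.11), which interconverts the triose phosphates, had overlapping groups. Pkm, the pyruvate kinase gene and the most abundant member of glycolysis, had 933, 1086 and 995 CPM in MSR1 KO and 1056, 1100 and 998 CPM in MSR1 WT, with a log2 fold change of -0.07 ± 0.076. Its 95% interval of -0.24 to 0.11 left out a 1.5-fold difference in either direction. Exons of another gene on the same strand cover 15.3% of the Pkm exon length, so some of its reads may have been given to that gene.

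Gapdh, often taken as a constant reference transcript, had 221, 342 and 345 CPM in MSR1 KO and 254, 302 and 252 CPM in MSR1 WT, with a log2 fold change of 0.17 ± 0.17 and an adjusted p of 0.66. The mouse genome carries many processed copies of this gene, and 88 other rows of the table that share at least 100 stretches of 50 bases with its transcripts together held 169% of the counts given to Gapdh. The gene's own row held from 32.5% to 43.2% of the joint count. When the copies were added, the level was 636, 793 and 814 CPM against 783, 879.8 and 712 CPM, and the log2 fold change turned to -0.08 ± 0.11 with an adjusted p of 0.76. Neither estimate had an adjusted p under 0.05, so no direction was set for Gapdh. How reads were shared out among copies was not tested. The same addition left Pgam1 (9.22% in copies) at -0.34, Pgk1 (6.3%) at -0.23 and Eno1 (2.78%) at -0.25.

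Lactate dehydrogenase joins pyruvate and lactate, with Ldha coding the muscle subunit and Ldhb the heart subunit. Ldha had 311, 311 and 308 CPM in MSR1 KO and 330.2, 352 and 347 CPM in MSR1 WT. The 3 MSR1 KO values were close together and all lower, and the log2 fold change was -0.15 ± 0.061 with an adjusted p of 0.23. Ldhb had 13.2, 14.3 and 18 CPM against 21.4, 20.7 and 18.3 CPM, with the MSR1 KO libraries lower and replicate 3 of either genotype almost level. Its log2 fold change was -0.41 ± 0.14 with an adjusted p of 0.16. Per kb of exon, the ratio of Ldha to Ldhb was 11.1, 10.3 and 8.11 in MSR1 KO and 7.32, 8.08 and 9.02 in MSR1 WT, a difference of 0.27 on the log2 scale with a two-sided exact permutation p of 0.2, where 0.1 is the smallest p that 3 against 3 libraries allow. With each library left out, the log2 difference in this ratio ran from 0.175 (without MSR1 KO replicate 1) to 0.404 (without MSR1 KO replicate 3). Slc16a3 (MCT4), which exports lactate, had overlapping groups and a log2 fold change of -0.22 ± 0.12.

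**Figure D3:**
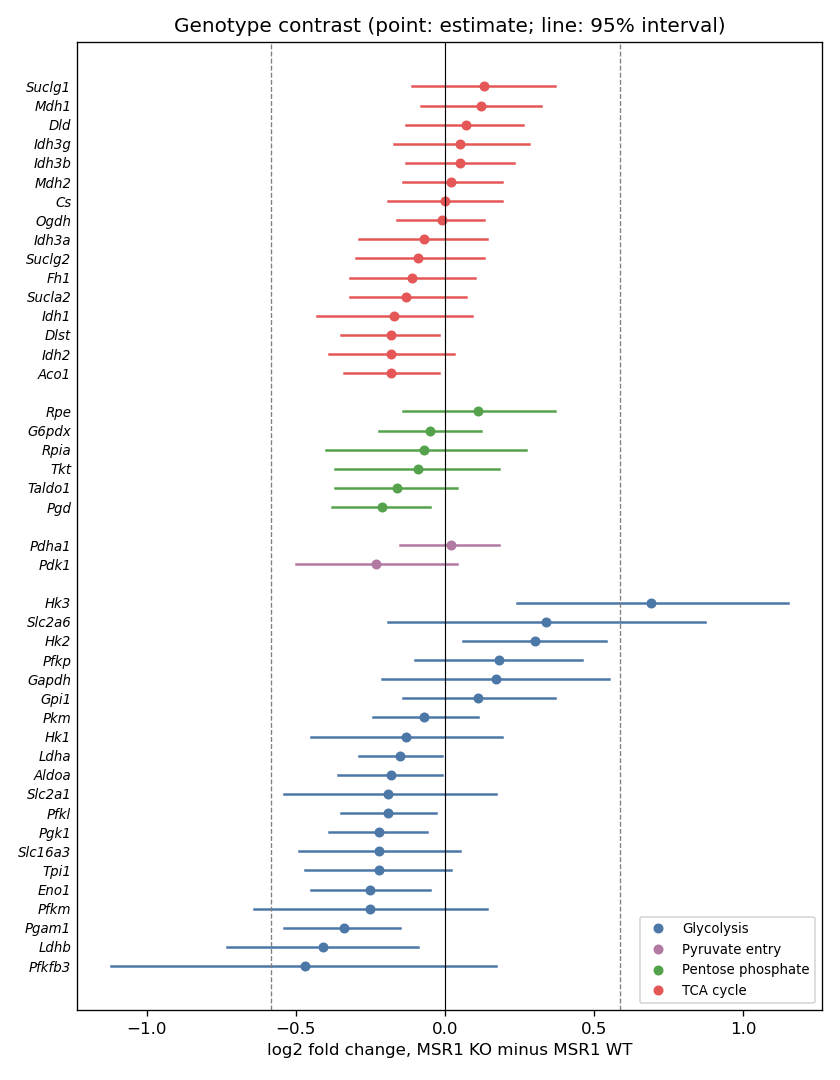
Log2 fold change of MSR1 KO minus MSR1 WT (x axis) for the 44 members, grouped by branch and ordered by size along the y axis; points are edgeR estimates, lines 95% intervals, and dashed lines a 1.5-fold difference in either direction. Hk3 at 0.69 is the only point past a dashed line, Pfkfb3 at -0.47 has the widest line, and no line of the pentose phosphate or TCA groups reaches a dashed line.

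By level per kb of exon over all 6 libraries, Pkm (206 ± 12.7, SD; 187 to 219.9) and Aldoa (171 to 219) led glycolysis and overlapped each other. Pgk1, Pgam1, Ldha and Eno1 followed between 86.1 and 101 CPM per kb, each overlapping the next. Gapdh stood at 69.2 CPM per kb alone and at 186 with its copies. Hk3 (57.7 ± 20.8) was set apart from the remaining 10 genes, which ran from 11.6 (Hk2) down to 4.08 CPM per kb (Pfkp). The glucose transporters, the lactate exporter, Pfkfb3 and the phosphofructokinases were thus all among the least abundant transcripts of the branch. By coding length the order differed in part, with Eno1 (356 CPM per kb) and Ldha (302) above Pgam1 (259) and Pgk1 (182).

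Pyruvate is oxidised to acetyl-CoA by pyruvate dehydrogenase, and the pyruvate dehydrogenase kinases switch that enzyme off. Pdha1, the catalytic subunit, had 96.3, 101 and 95.4 CPM in MSR1 KO and 98.6, 99.9 and 91.1 CPM in MSR1 WT, with a log2 fold change of 0.02 ± 0.072 that was -0.017 when counts were scaled by library size alone. Its 95% interval was -0.15 to 0.18. Pdk1, the kinase induced in hypoxia, had 33.9, 37.2 and 27.9 CPM against 36.3, 41.2 and 38.5 CPM, with -0.23 ± 0.12 and an adjusted p of 0.34.

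The pentose phosphate genes differed little. Of the 6, 5 were below 0, the median log2 fold change was -0.08, and Pgd alone had an unadjusted p under 0.05. The entry enzyme G6pdx had 329, 329.8 and 339.9 CPM in MSR1 KO and 344, 374 and 319 CPM in MSR1 WT, with a log2 fold change of -0.05 ± 0.074 and an adjusted p of 0.77. Pgd, which makes the second NADPH of the oxidative arm, had 392, 402 and 399.9 CPM against 466, 494 and 423 CPM. The MSR1 KO values lay close together and below every MSR1 WT value, with a log2 fold change of -0.21 ± 0.073 and an adjusted p of 0.16. Taldo1, the transaldolase of the sugar-exchanging arm, had 176, 163 and 194 CPM against 189.5, 217 and 190.4 CPM, with -0.16 ± 0.09 and an adjusted p of 0.38. Tkt (-0.09 ± 0.12), Rpia (-0.07 ± 0.15) and Rpe (0.11 ± 0.11) had overlapping groups. No 95% interval of the branch went below -0.40 or above 0.37, short of a 1.5-fold difference. Per kb of exon G6pdx (110.2) and Taldo1 (86.8) came before Pgd (66.6), Tkt (42), Rpe (11.6) and Rpia (1.95). Of these neighbours the libraries of Taldo1 and Pgd overlapped. The order depended on the length used. By coding length Pgd (296 CPM per kb) came first, before G6pdx (219.6), Tkt (165) and Taldo1 (164). On the opposite strand, exons of other genes covered 13.6% of the G6pdx exon length and 17.9% of that of Rpe, and strand use in counting is not given in the sources used here.

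The TCA group differed little. Over its 16 genes the log2 fold change ran from -0.18 to 0.13 with a median of -0.04 beside -0.002 over all genes, 9 below 0 and 7 above, and 2 genes (Aco1 and Dlst) had an unadjusted p under 0.05. No 95% interval went below -0.43 or above 0.37. The summed level was 1350, 1357 and 1398 CPM in MSR1 KO and 1396, 1403 and 1411 CPM in MSR1 WT, so the highest MSR1 KO library lay above the lowest MSR1 WT library.

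Cs, the citrate synthase that opens the cycle, had 166, 187 and 159.9 CPM in MSR1 KO and 169, 180.1 and 163 CPM in MSR1 WT. Its log2 fold change was 0.00 ± 0.081 with a 95% interval of -0.19 to 0.19, and it stood at -0.031 when scaled by library size alone. Aco1, the cytosolic aconitase that doubles as an iron sensor, had 64, 65.1 and 67.6 CPM against 71.5, 76.4 and 74.8 CPM. Every MSR1 KO value was lower, with a log2 fold change of -0.18 ± 0.071 and an adjusted p of 0.21.

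Isocitrate dehydrogenases come in NADP-linked and NAD-linked forms. Idh1, the cytosolic NADP-linked enzyme and the most abundant gene of the group per kb (80.5 ± 9.63, SD), had 222, 181 and 228 CPM in MSR1 KO and 249, 208 and 251 CPM in MSR1 WT, with a log2 fold change of -0.17 ± 0.11 and an adjusted p of 0.48. In each genotype replicate 2 was the lowest. Idh2, its mitochondrial relative, had 57.9, 49.1 and 48.1 CPM against 60.5, 58.7 and 56.8 CPM, with -0.18 ± 0.092 and an adjusted p of 0.34. The subunits of the NAD-linked enzyme of the cycle gave -0.07 ± 0.093 (Idh3a), 0.05 ± 0.077 (Idh3b) and 0.05 ± 0.10 (Idh3g). Idh3b, the third most abundant of the group per kb of exon, had 104, 112 and 105 CPM against 95.6, 107 and 108 CPM, with overlap. By coding length Cs (123 CPM per kb) and Mdh2 (101) stood above Idh3b (91.4).

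The 2-oxoglutarate dehydrogenase complex is built from Ogdh, Dlst and Dld. Dlst, its core subunit, had 51.1, 48.2 and 50.5 CPM in MSR1 KO and 57.3, 54.8 and 57.7 CPM in MSR1 WT, with no overlap, a log2 fold change of -0.18 ± 0.072 and an adjusted p of 0.22. Ogdh (-0.01 ± 0.063) and Dld (0.07 ± 0.084) of the same complex overlapped between groups. The succinyl-CoA ligase genes Sucla2 (-0.13 ± 0.085), Suclg1 (0.13 ± 0.10) and Suclg2 (-0.09 ± 0.093) and the fumarase gene Fh1 (-0.11 ± 0.093) did so too. Mdh1, the cytosolic malate dehydrogenase, had 107, 121 and 116 CPM against 109, 112 and 96.3 CPM, with 0.12 ± 0.086 and an adjusted p of 0.53. Mitochondrial Mdh2 gave 0.02 ± 0.072, or -0.011 when scaled by library size alone.

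A further 82 genes of the same pathways, written down from general knowledge, were looked up outside the members, and 69 of them had enough counts to be tested. By the study's definition 4 were lower (Pdk4, Me1, Eno2 and Pcx) and 2 higher (Acod1 and Gpd1), against 5.05% and 3.59% of all genes. At an adjusted p under 0.05, 2 were lower (Pdk4 and Me1) and 0 higher, against 2.66% and 2.25% of all genes, so the share lay near the background. The median log2 fold change was -0.01 over the 69 genes. By branch it was -0.03 for 26 other genes of glycolysis, -0.07 for 16 of pyruvate metabolism, 0.00 for 7 of the pentose phosphate pathway and 0.03 for 20 of the TCA cycle. Slc2a3 (0.38 ± 0.11, adjusted p 0.11 by edgeR) and Slc2a9 (0.37 ± 0.10, adjusted p 0.085) had all MSR1 KO values above all MSR1 WT values. Slc2a8 (0.16 ± 0.10) of the same transporter family overlapped. These genes were singled out after their values were seen.

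Pdk4, the pyruvate dehydrogenase kinase tied to fasting and fat use, had 18.1, 17.6 and 16.6 CPM in MSR1 KO and 29.2, 39.8 and 33.5 CPM in MSR1 WT. It fell in MSR1 KO, with a log2 fold change of -0.97 ± 0.12 (95% interval -1.26 to -0.68) and an adjusted p of 0.011, which ranged from 7e-09 to 0.049 over all alternatives. Me1, the cytosolic malic enzyme that makes NADPH, fell from 17.4, 16.3 and 15.1 CPM in MSR1 WT to 10.3, 10.6 and 11.1 CPM in MSR1 KO, with a log2 fold change of -0.61 ± 0.11 and an adjusted p of 0.027. Its adjusted p ranged from 0.00043 to 0.11 over all alternatives and was above 0.05 with the replicate block and when any library but MSR1 WT replicate 3 was left out, with log2 fold changes from -0.66 to -0.56. Pdk1 and Pdk4, kinases of the same target, thus had estimates of -0.23 and -0.97, the first with overlapping groups and the second without. The stromal and cell cycle sums were lower in the same MSR1 KO libraries, and their part in the Pdk4 and Me1 differences was not tested.

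Acod1, which diverts cis-aconitate from the cycle to itaconate, had 43, 64.4 and 18.1 CPM in MSR1 KO and 10.6, 16.7 and 14.8 CPM in MSR1 WT. Every MSR1 KO value was higher, but they spread 3.55-fold among themselves, and the log2 fold change of 1.58 ± 0.40 had an adjusted p of 0.067. MSR1 KO replicate 2 was again the highest library, and without it the log2 fold change was 1.12. The succinate dehydrogenase genes, shared between the TCA cycle and the respiratory chain, gave log2 fold changes of 0.08 ± 0.068 for Sdha, 0.21 ± 0.10 for Sdhb, 0.04 ± 0.10 for Sdhc and 0.15 ± 0.085 for Sdhd. Sdha had 295, 299.8 and 329 CPM in MSR1 KO and 298, 289.6 and 289 CPM in MSR1 WT. The membrane anchors Sdhc and Sdhd had 57.5, 62.7 and 72 against 62.4, 66.6 and 57.4 CPM, and 94.7, 112 and 111 against 98.4, 93 and 95.1 CPM. Sdhb had 76.7, 75.9 and 86.9 CPM against 61.4, 73.9 and 71.2 CPM with no overlap and an adjusted p of 0.28, and the other three overlapped. Eno2 (-0.99 ± 0.30), Pcx (-0.69 ± 0.23) and Gpd1 (0.72 ± 0.29), singled out after their values were seen, were at no more than 4.59 CPM in any library.

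**Figure D4:**
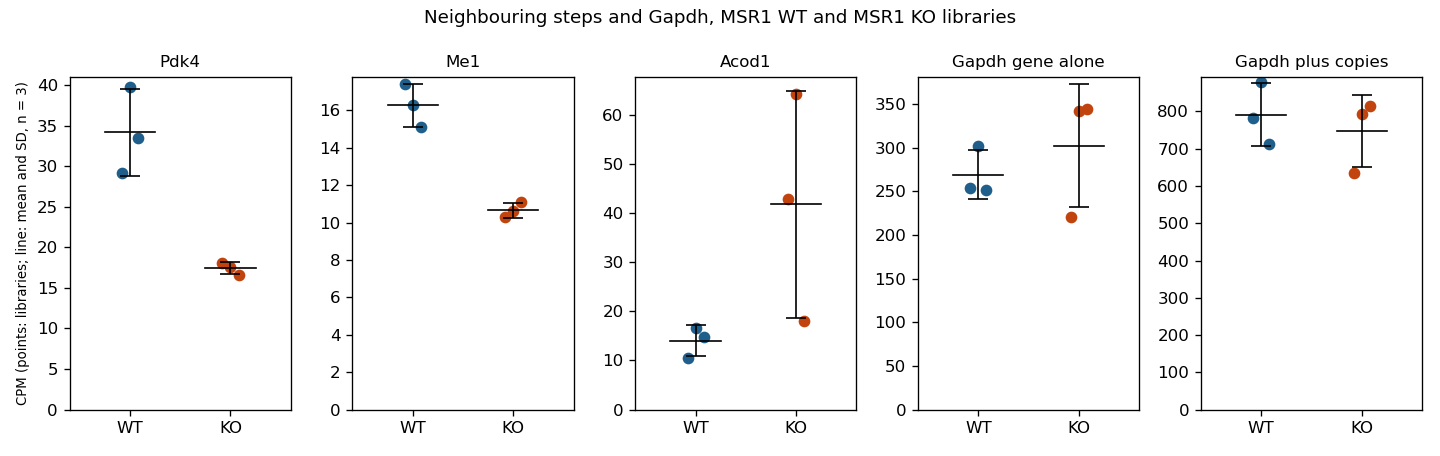
CPM (y axes, linear and from 0, a separate scale in each panel) of Pdk4, Me1, Acod1, Gapdh alone and Gapdh with the 88 rows that share its sequence, in MSR1 WT (blue) and MSR1 KO (orange) libraries; points are libraries, long lines means and capped lines SD (n = 3). Pdk4 and Me1 are lower in every MSR1 KO library, Acod1 is higher in each with a wide spread, and the 2 Gapdh panels differ in which group has the higher mean.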

How the data were processed

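RNA-seq was performed on 6 libraries, 3 MSR1 KO and 3 MSR1 WT, grouped by the genotype in the labels. Poly(A) mRNA libraries were sequenced on an Illumina instrument. The study's methods name TopHat 2.0.11 for alignment, whereas the submitters' processing notes list fastp 0.17.1, HISAT2 2.1.0, DESeq2 1.18.1 and R 3.4.3; the counting program, strand setting and genome build are not given in the sources used here. The authors deposited unnormalized read counts for each gene, and beside them a signal column for each library (the count over a size factor) that was not used here. The table also holds the results of the authors' own comparison (fold change, p-value, adjusted p-value), which were not used.

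Genes passing filterByExpr were tested by the quasi-likelihood method of edgeR 4.0.16 (glmQLFit, glmQLFTest; R 4.3.3) after TMM scaling, with Benjamini-Hochberg adjustment over all 16402 genes. All 44 member symbols were found, in 45 rows. The second Aldoa row, with at most 8 counts per library, was left out. Exon lengths, positions (GRCm38) and shared 50-base stretches were taken from GENCODE M21, in which 52403 of 52550 identifiers were found; 42 of the 45 member rows had the same start and end. Promoters are RefSeq's (GRCm38.p6). Alternatives were DESeq2 1.42.0, size factors from DESeq2, no scaling factor, every gene with a count, a minimum of 10 counts per library, a block for replicate number, each library left out in turn, coding length for isozyme shares and, added after the data were seen, the counts of sequence-sharing genes added to a member. Scripts were tested on simulated data.

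The members and lists were chosen with earlier results of these data known. Values in every library were given for members past either call, those with the largest changes (3 in glycolysis, 3 in the TCA group, 2 in the pentose phosphate group), the 3 most abundant per branch, and Slc2a1, Hk2, Pfkfb3, Ldha, Pdk1, G6pdx, Cs and Idh1; of other pathway genes, those with an adjusted p under 0.05, Acod1 and Sdha to Sdhd. The values of 1 further gene under this rule are not reported here. Others are marked as singled out. Precision is limited by 3 libraries per group.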

Additional observations from a re-analysis of the deposited data

How the results depend on the processing

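No branch median changed sign under any alternative. Over all genes, calls at an adjusted p under 0.05 were 847 lower and 716 higher by DESeq2, 288 and 237 with no filter beyond a total count above 0, and 53 to 372 and 18 to 407 with each library left out, fewer than the main count divided by 1.5 without any library but MSR1 WT replicate 3. Among glycolysis members, DESeq2 called 1 lower and 1 higher at an adjusted p under 0.05, and library size alone called 1 lower (Pgam1). By the study's definition they were 0 to 1 lower (Pfkfb3 without MSR1 KO replicate 2 or MSR1 WT replicate 3) and 0 to 1 higher (Hk3 lost without MSR1 KO replicate 2) with each library left out. Members at an unadjusted p under 0.05 were 6 lower by DESeq2, and 1 to 9 lower and 1 to 3 higher with each library left out. Other pathway genes at an adjusted p under 0.05 were 2 higher by DESeq2, and 1 to 2 lower and 0 to 1 higher with each library left out, when 1 to 2 were higher by the study's definition. By coding length the share of Pfkl differed by -4.744 percentage points. Values near 0 that changed sign included Pdha1 (-0.017 by library size alone, -0.025 to 0.040 with each library left out), Cs (-0.031 by library size alone, -0.067 to 0.052), G6pdx (-0.108 to 0.005), Idh3b (-0.006 to 0.080) and Sdhc (-0.043 to 0.123), and also Tkt (-0.18 to 0.02), Rpia (-0.18 to 0.03), Idh3g (-0.02 to 0.12), Ogdh (-0.03 to 0.01), Mdh2 (-0.03 to 0.06; -0.011 by library size alone), and Gpi1 and Rpe, which reached just below 0 without MSR1 KO replicate 3. Gapdh turned to -0.08 with its copies added. Deviations of same-numbered libraries from their group means correlated at -0.0261, 0.0187 and -0.0048, within the range of differently numbered ones (-0.0337 to 0.0367). No shared deviation by replicate number was thus seen. These correlations cannot tell whether same-numbered cultures were prepared together. With the replicate block, 78 genes were lower and 59 higher at an adjusted p under 0.05, 1 other pathway gene (Pdk4, with Me1 lost) was lower at that threshold and 1 higher by the study's definition, the members had the same calls, and Cs stood at -0.001. The cause of these shifts was not tested.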

Other observations

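Genes other than the members that hypoxia-inducible factors are known to switch on were also looked up, since many glycolytic genes belong to that group. Of 18 such genes, 17 were below 0 and 1 above, with a median log2 fold change of -0.21 beside -0.002 over all genes tested. By the study's definition 1 was lower (Ndrg1) and 0 higher, where 5.05% and 3.59% of all genes were, 0 had an adjusted p under 0.05, and at an unadjusted p under 0.05 there were 7 lower (Bnip3, Egln3, Ndrg1, Adm, P4ha2, Ddit4 and Bhlhe40) and 1 higher (Vegfa), where 10.2% and 8.65% of all genes were. The summed stromal level (2948 to 3751 CPM in MSR1 KO, 3959 to 4844 CPM in MSR1 WT) and cell cycle level (520.4 to 594 and 627 to 975 CPM) were lower in the same libraries, and their part was not tested. Ndrg1, a stress-response gene, had 13.1, 14.5 and 10.2 CPM in MSR1 KO and 19.6, 22.4 and 17.6 CPM in MSR1 WT (log2 fold change -0.66 ± 0.16, adjusted p 0.055 by edgeR). Bnip3, a mitophagy receptor, had 26.1, 26 and 25.3 CPM against 31.1, 31.1 and 30.4 CPM (-0.26 ± 0.078, adjusted p 0.11). Vegfa, the vascular growth factor, went the other way, with 118, 139 and 119 CPM against 96.5, 90.5 and 104 CPM (0.37 ± 0.093, adjusted p 0.063). These 3 genes were singled out after their values were seen, and no test was made of the list.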
